A study of Rattus norvegicus with 18 samples.

Results

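The 3 Gadd45 genes and the polo-like kinase genes Plk2 and Plk3 were followed across 6 treatments of INS1E cells, a beta-cell line from a rat insulinoma that secretes insulin. The genes were taken by symbol from the authors' normalised signal table, where Gadd45a (probe set 10862867), Gadd45b (10900358), Gadd45g (10797527), Plk2 (10812954) and Plk3 (10878938) each had 1 probe set. They are 5 of the 13136 gene symbols in that table, and all 5 were among the 9852 genes left for testing after the lowest 25% by mean signal had been removed. The 18 Affymetrix Rat Gene 1.0 ST arrays, with 1 RNA sample each, formed 6 groups of 3.

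All cells had been grown in medium with 11 mM glucose and then kept for 72 h with 10 nM calcitriol, with 10 nM calcidiol or with standard supplements alone. Calcidiol, 25(OH)vitamin D, is the circulating form of vitamin D, and calcitriol, 1,25(OH)2vitamin D, is the hormonally active form with a further hydroxyl group. Every group then spent 60 min in buffer without glucose, after which cells of each pretreatment were held for 60 min with or without 22 mM glucose. The groups are called control, calcitriol and calcidiol without glucose, and glucose, calcitriol with glucose and calcidiol with glucose. The study thus asked how a short glucose stimulus and each vitamin D form change the beta-cell line's transcripts. Since no label states that the 3 samples of a group were cultured separately, the p-values measure the spread between samples alone, and that spread may be technical.

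GADD45 proteins are small, acidic proteins without enzyme activity of their own, named for growth arrest and DNA damage. They bind other proteins, among them the upstream p38 and JNK pathway kinase MEKK4 (Map3k4), the CDK1 and cyclin B1 complex and PCNA, and they take part in active DNA demethylation. Gadd45a is a textbook DNA damage response gene, Gadd45b was described as a gene induced by NF-kB and TGF-beta signalling, and Gadd45g as a cytokine response gene. PLK2 and PLK3 are serine/threonine kinases with a polo-box domain that respond quickly to growth factors, neuronal activity and stress, in contrast to PLK1, the kinase of mitotic entry. In neurons PLK2 phosphorylates the synaptic RapGAP SPAR (Sipa1l1).

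Under glucose Gadd45b rose most, by 1.41 log2 units averaged over the 3 pretreatments, and Plk3 rose by 0.87. Gadd45g and Gadd45a were higher by 0.27 and 0.19 without passing the test on 18 arrays, and Plk2 was lower by 0.20. No gene of the 5 passed in any comparison between vitamin D states. On the 12 arrays numbered 1 and 2, without the 6 numbered 3, of which 3 went against their labels in Txnip, the glucose differences of all 5 genes were larger in size, and Gadd45b, Plk3, Gadd45g and Gadd45a passed. The 6 were left out after the signals of Txnip, a glucose-induced gene, had been seen. This choice favours larger glucose differences, so the 12-array p-values are not an independent test.

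Because Gadd45b and Plk3 rose together while Plk2 did not, the bases upstream of the RefSeq transcription starts (assembly GRCr8) were searched on both strands for short motifs that CREB, AP-1, EGR, SRF and E-box proteins bind. All 5 genes had an entry of 250 bases among 33469 rat promoters. The Plk2 promoter, chr2:43702286-43702535 on the plus strand, held the full cAMP response element TGACGTCA, which starts 66 bases before the transcription start. The Plk3 promoter, chr5:135848901-135849150 on the minus strand, held the shorter element TGACG, a part of the full one, at 127 and at 59 bases before the start and no full element. In both lines the capitals mark these elements.
Plk2: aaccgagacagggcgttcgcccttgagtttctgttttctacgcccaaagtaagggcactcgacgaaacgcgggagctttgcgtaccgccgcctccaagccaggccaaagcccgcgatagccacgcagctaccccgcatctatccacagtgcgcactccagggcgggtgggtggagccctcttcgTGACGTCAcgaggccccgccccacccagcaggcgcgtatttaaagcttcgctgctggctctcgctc
Plk3: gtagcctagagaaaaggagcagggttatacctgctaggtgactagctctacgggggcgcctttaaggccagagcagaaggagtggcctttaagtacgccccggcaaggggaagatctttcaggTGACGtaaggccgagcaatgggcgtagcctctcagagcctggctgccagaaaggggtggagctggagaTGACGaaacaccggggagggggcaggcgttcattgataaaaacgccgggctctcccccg
The full element was in 1.59% of all promoters of this length and the shorter one, which every full element contains on both strands, in 18.2%.

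Gadd45b and Gadd45g each held 1 E-box CACGTG, at 178 and 163 bases before the start. The 30 bases around it are shown for comparison of its flanks, from chr7:9430879-9430908 for Gadd45b and chr17:13530497-13530526 for Gadd45g, both on the minus strand, with the E-box in capitals.
Gadd45b: agccctgaccccCACGTGgggccgccggag
Gadd45g: cgcacccctcccCACGTGgccttctggcac
An E-box of these letters was in 5.59% of promoters. Gadd45a held 1 shorter element, read as CGTCA on the printed strand, at 128 bases before its start. No AP-1 element (TGANTCA, in 6.34% of promoters), EGR element (GCGNGGGCG, in 4.29%) or CArG box (in 1.50%) was found in these windows of the 5 genes. The letters CCAAT, in 34.0% of promoters, were in Gadd45a, Gadd45b and Gadd45g, and TATAAA, in 12.9%, was in Gadd45g. Gadd45b and Gadd45g held no shorter element TGACG. Gadd45b and Plk3, which rose together, thus had none of the searched motifs in common. A match is a description of letters and not evidence of a bound factor.

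The cells carried the beta-cell markers. Of 12 beta-cell markers 10 were in the table and all 10 were above the filter, led by Ins2 (mean log2 signal 13.02) and Ins1 (12.86), while Pdx1 and G6pc2 were not analysed here. Of 12 markers of other cell types 7 were in the table, and Gcg, the glucagon gene, alone was above the filter, at 10.20 to 12.16. The Gcg mean of 11.51 was above those of the beta-cell markers Neurod1 (11.45), Mafa (10.97), Pcsk1 (9.82) and Nkx6-1 (8.21). It was below those of the other beta-cell markers in the table. Summed over the 10 beta-cell markers in the table, the log2 signals ran from 113.7 to 115.3 over the 18 arrays. Over the 7 other markers in the table the sums ran from 42.8 to 46.1, and with unlike numbers of genes the totals are not comparable. The array medians lay between 7.52 and 7.63.

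Of the 6 arrays numbered 3, 3 went against their labels in Txnip, the thioredoxin-interacting protein gene and a textbook glucose-induced gene in beta cells. On arrays 1 and 2 of each group, Txnip was 10.39 to 10.53 without glucose and 12.18 to 12.33 with it. The array labelled calcitriol 3 had 12.11, while those labelled glucose 3 and calcidiol with glucose 3 had 10.33 and 10.23. Those labelled calcitriol with glucose 3, calcidiol 3 and control 3 had 12.28, 10.44 and 9.88 and lay on the side of their labels. Gcg was lowest on the arrays numbered 3 of calcidiol and calcidiol with glucose, at 10.27 and 10.20. Whether samples were exchanged among these arrays was not tested, and the 18-array differences follow the labels as given. The main results are therefore given for 18 arrays and for the 12 arrays numbered 1 and 2, a choice made with these values known, and the part of the arrays numbered 3 in the 18-array results beyond this comparison was not tested. Leaving arrays out by a glucose-induced gene favours larger glucose differences in genes that follow it, so the 12-array p-values are not an independent test.

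**Figure D1:**
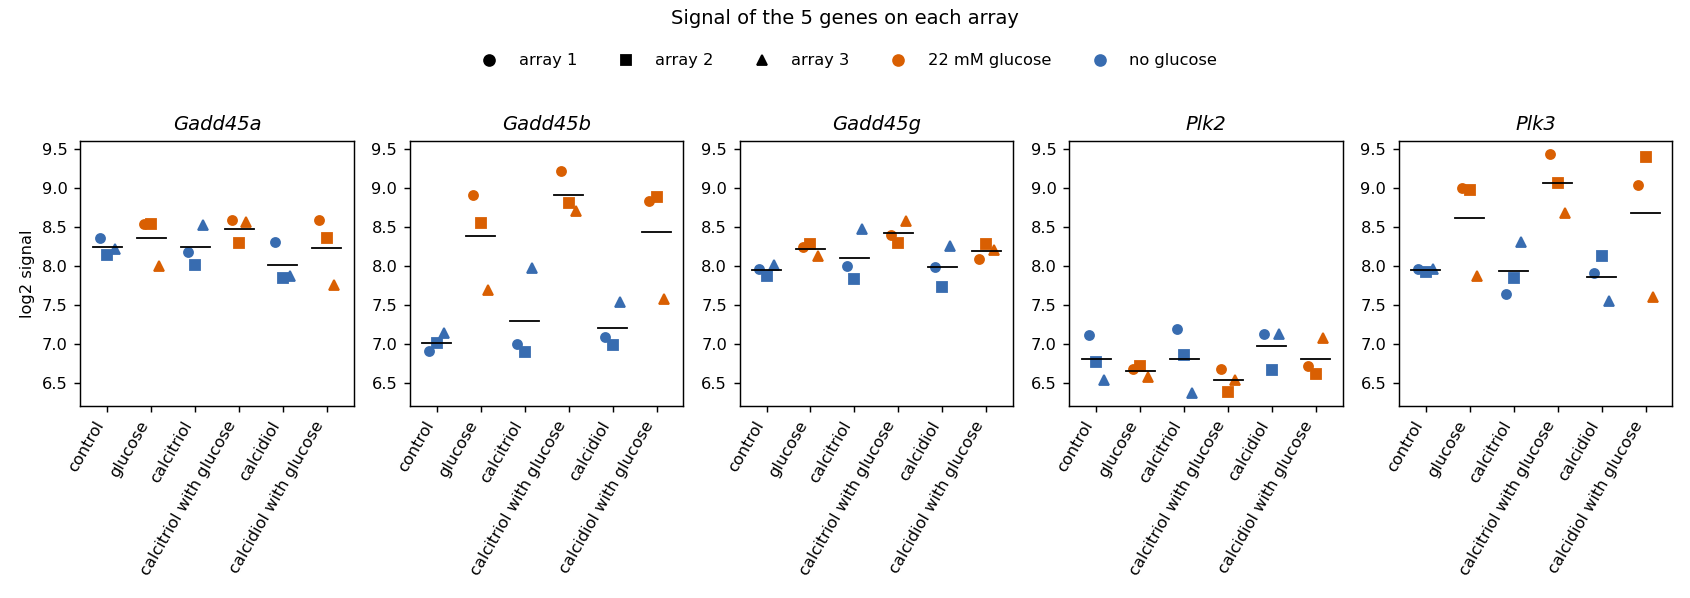
Log2 signal (vertical axis) of each gene on every array, by group (horizontal axis). Circles, squares and triangles are arrays 1, 2 and 3, orange is 22 mM glucose, blue is no glucose, and the line is the group mean of 3. In Gadd45b and Plk3 the triangles of glucose and of calcidiol with glucose lie at 7.57 to 7.87, below the orange circles and squares.

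Gadd45b had the highest glucose difference of the 5 genes. Its log2 signal on arrays 1, 2 and 3 was 6.90, 7.01 and 7.14 in control and 8.91, 8.55 and 7.69 in glucose. After calcitriol it was 6.99, 6.89 and 7.97 without glucose and 9.22, 8.81 and 8.71 with it. After calcidiol it was 7.09, 6.98 and 7.53 without glucose and 8.83, 8.88 and 7.57 with it. In each pretreatment the lowest array with glucose was above the highest without, although by 0.04 after calcidiol, where both were arrays numbered 3. Across pretreatments the glucose arrays numbered 3 of 2 groups, at 7.69 and 7.57, fell below the calcitriol array numbered 3 at 7.97.

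The group means of Gadd45b were 7.01 ± 0.12 in control, 7.20 ± 0.29 in calcidiol and 7.29 ± 0.60 in calcitriol (SD, n = 3 each). With glucose they were 8.38 ± 0.63 in glucose, 8.43 ± 0.74 in calcidiol with glucose and 8.91 ± 0.27 in calcitriol with glucose (SD, n = 3 each). Neighbours in that order within each glucose state differed by less than the larger of their SDs, and the step from calcitriol to glucose exceeded it. All 9 differences between same-numbered arrays were above 0, from 0.04 to 2.22, and the 6 of arrays numbered 1 and 2 were 1.54 to 2.22. No label pairs these arrays. Such counts were not made over all genes, so here and for the other genes they are descriptions.

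Averaged over pretreatments the rise in Gadd45b was 1.41 (SE 0.206, 95% interval 0.97 to 1.84, 2.65-fold, limma adjusted p = 0.00938). It was the 8th highest difference of the 9852 genes. Over the arrays numbered 1 and 2 it was 1.89 (SE 0.0818, interval 1.71 to 2.07, 3.70-fold, adjusted p = 3.72e-07). In bulk RNA a change in the share of cells that carry a transcript and a change in the RNA per cell cannot be told apart. The call held without any single array, with adjusted p from 2.36e-04 to 0.0356, and was lost without all 6 arrays numbered 1 (1.11, adjusted p = 0.723) or numbered 2 (1.22, adjusted p = 0.575). In those fits 0 of 9852 genes passed, while limma gave an unadjusted p under 0.05 to 650 genes without the arrays numbered 1 and to 842 without those numbered 2.

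Plk3, a stress-responsive polo-like kinase, was the other gene that passed. Its log2 signal was 7.95, 7.92 and 7.96 on control arrays 1, 2 and 3 and 8.99, 8.97 and 7.87 on glucose arrays. After calcitriol it was 7.63, 7.85 and 8.31 without glucose and 9.43, 9.06 and 8.67 with it. After calcidiol it was 7.91, 8.12 and 7.55 without glucose and 9.03, 9.39 and 7.60 with it. The glucose and calcidiol with glucose arrays numbered 3 lay in or below the range of their own unstimulated group, so the groups overlapped except after calcitriol.

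The means of Plk3 without glucose were 7.86 ± 0.29 in calcidiol, 7.93 ± 0.34 in calcitriol and 7.94 ± 0.02 in control (SD, n = 3 each). With glucose they were 8.61 ± 0.64 in glucose, 8.67 ± 0.95 in calcidiol with glucose and 9.05 ± 0.38 in calcitriol with glucose (SD, n = 3 each). Neighbouring means within a glucose state again differed by less than the spread. Of 9 same-numbered differences 8 were above 0, and the 6 of arrays numbered 1 and 2 ran from 1.04 to 1.80.

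Averaged over pretreatments Plk3 rose by 0.87 (SE 0.218, interval 0.40 to 1.33, 1.82-fold, limma adjusted p = 0.0423), the 28th highest of 9852. Restricted to arrays 1 and 2, it rose by 1.25 (SE 0.0845, interval 1.06 to 1.43, 2.37-fold, adjusted p = 7.79e-06). The call on 18 arrays was lost when any 1 of 14 arrays was left out, with an adjusted p of 0.0565 to 0.103. Without array 3 of glucose, calcitriol, calcitriol with glucose or calcidiol with glucose it was 0.00198 to 0.0359.

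Gadd45b and Plk3 were thus 2 of the 5 genes called in the averaged glucose effect on 18 arrays, both higher, where 3.37% of all genes tested were called and 1.4% were called higher. The 5 genes were chosen with earlier results of these data known, so such counts are descriptions and not a test. The 332 calls were 138 higher and 194 lower, and 175 higher and 137 lower once each array had been centred on its median. Once the arrays numbered 3 were left out, 4 of 5 were called, all higher, against 9.94% of all genes in either direction and 3.76% higher and 6.18% lower. The median difference over all genes was -0.03 on 18 arrays and -0.04 on the 12.

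**Figure D2:**
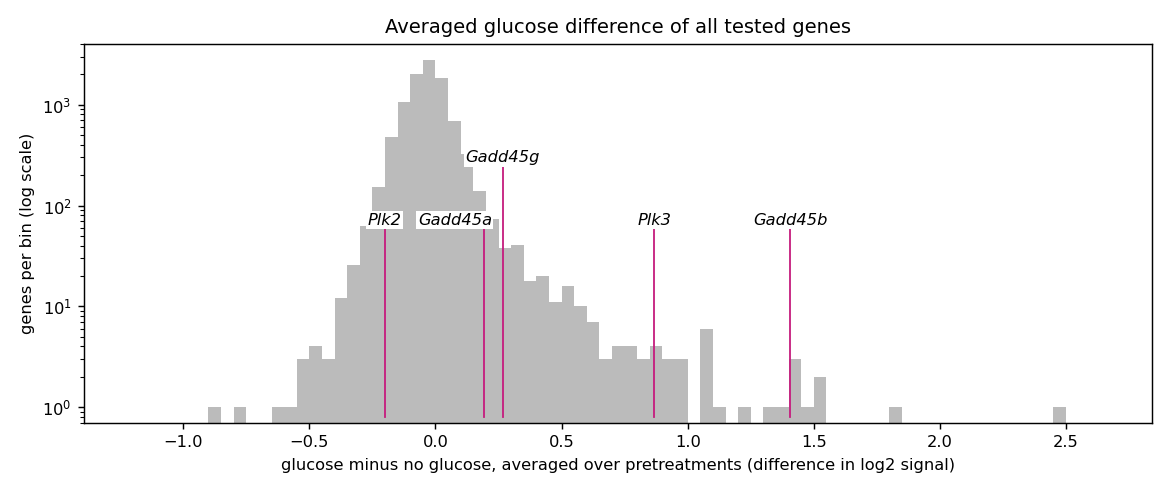
Averaged glucose difference in log2 signal (horizontal axis) of the 9852 tested genes on 18 arrays, as a histogram with a log vertical axis of genes per bin, and lines for the 5 genes. Gadd45b at 1.41 and Plk3 at 0.87 lie in the upper tail, and Plk2 at -0.20 lies below the median of -0.03.

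Gadd45g, a cytokine-response member of the family, changed less. Its log2 signal was 7.96, 7.86 and 8.01 on control arrays 1, 2 and 3 and 8.24, 8.28 and 8.13 on glucose arrays. After calcitriol it was 7.999, 7.82 and 8.48 without glucose and 8.39, 8.30 and 8.58 with it. After calcidiol it was 7.98, 7.72 and 8.25 without glucose and 8.08, 8.28 and 8.21 with it. Control and glucose did not overlap, and in both vitamin D pretreatments array 3 without glucose lay within the range with glucose.

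The averaged difference of Gadd45g was 0.27 (SE 0.0832, interval 0.09 to 0.44, 1.20-fold, limma adjusted p = 0.0866), and 8 of 9 same-numbered differences were above 0. With the replicate number as a block it passed on 18 arrays (adjusted p = 0.0307), in a fit where 9.55% of all genes were called. In the 12-array fit it rose by 0.37 (SE 0.0616, interval 0.23 to 0.51, limma adjusted p = 0.00429). With that block on the 12 arrays it also rose after calcitriol alone, by 0.43 (limma adjusted p = 0.0390), beside 4.54% of all genes called. Leaving out array 3 of calcitriol or array 3 of calcidiol from the 18 gave 0.33 and 0.31, with adjusted p of 0.0149 and 0.0430.

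Gadd45a, the DNA damage-responsive member, was 8.35, 8.14 and 8.22 on control arrays 1, 2 and 3 and 8.54, 8.54 and 7.99 on glucose arrays. After calcitriol its log2 signal was 8.18, 8.003 and 8.52 without glucose and 8.58, 8.29 and 8.56 with it. After calcidiol it was 8.30, 7.85 and 7.87 without glucose and 8.58, 8.35 and 7.75 with it. The groups overlapped in each pretreatment, since the arrays numbered 3 ran against or level with the others.

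Averaged over pretreatments Gadd45a differed by 0.19 (SE 0.117, interval -0.05 to 0.44, limma adjusted p = 0.394), with 7 of 9 same-numbered differences above 0. Without the arrays numbered 3 it rose by 0.34 (SE 0.0894, interval 0.15 to 0.54, 1.27-fold, adjusted p = 0.0355), with 6 of 6 differences above 0, from 0.19 to 0.50.

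Plk2 was the gene of the 5 with a negative glucose difference. Its log2 signal was 7.11, 6.76 and 6.54 on control arrays 1, 2 and 3 and 6.67, 6.71 and 6.57 on glucose arrays. After calcitriol it was 7.19, 6.86 and 6.36 without glucose and 6.67, 6.37 and 6.54 with it. After calcidiol it was 7.12, 6.67 and 7.13 without glucose and 6.72, 6.61 and 7.07 with it. The groups overlapped in every pretreatment on 18 arrays. Without glucose its arrays spread from 6.36 to 7.19, both after calcitriol. Its signal was close to 6.38, the mean below which genes were left out of the tests. Calcitriol array 3 and calcitriol with glucose array 2 lay just below that value.

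The averaged difference of Plk2 was -0.20 (SE 0.111, interval -0.44 to 0.03, 0.870-fold, limma adjusted p = 0.347), and 7 of 9 same-numbered differences were below 0. With arrays 1 and 2 alone it was -0.33 (SE 0.0997, interval -0.55 to -0.11, adjusted p = 0.0663), with 6 of 6 below 0, from -0.52 to -0.05. The fit of those 12 arrays with the replicate number as a block called it lower (SE 0.0622, adjusted p = 0.00625), beside 15.9% of all genes called there. That fit also called Plk2 lower after calcitriol, at -0.50 (adjusted p = 0.0287), beside 4.54% of all genes called.

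Within single pretreatments none of the 5 genes passed on 18 arrays. The Gadd45b difference was 1.37 without vitamin D (interval 0.61 to 2.12, limma adjusted p = 0.568), 1.62 after calcitriol (0.87 to 2.38, adjusted p = 0.395) and 1.23 after calcidiol (0.47 to 1.99, adjusted p = 0.962). For Plk3 the differences were 0.66 (-0.14 to 1.47), 1.12 (0.32 to 1.93) and 0.81 (0.01 to 1.62) in the same order. No gene of the 9852 passed in these 3 comparisons, 0% in each, and limma gave an unadjusted p under 0.05 to 6.08%, 9.87% and 4.66% of them.

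By arrays, Gadd45b and Gadd45g were without overlap and higher with glucose when no vitamin D had been given, as were 4.41% of all genes. After calcitriol Gadd45b and Plk3 were, against 4.69% of all genes, and after calcidiol Gadd45b alone was, against 1.47%. Gadd45b was thus the gene of the 5 without overlap in every pretreatment, after calcidiol by 0.04 between arrays numbered 3. The share of all genes without overlap in every pretreatment was not counted.

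Over the arrays numbered 1 and 2 Gadd45b and Plk3 passed in each pretreatment. Gadd45b rose by 1.77, 2.07 and 1.82 without vitamin D, after calcitriol and after calcidiol (limma adjusted p = 1.62e-04, 3.63e-05 and 1.06e-04). Plk3 rose by 1.04, 1.50 and 1.20 (adjusted p = 0.00540, 3.73e-04 and 0.00203). These 2 of 5 genes stand beside 1.06%, 1.89% and 1.35% of all genes called. Gadd45g at 0.35, 0.43 and 0.33, Gadd45a at 0.29, 0.34 and 0.39 and Plk2 at -0.25, -0.50 and -0.23 did not pass there.

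**Figure D3:**
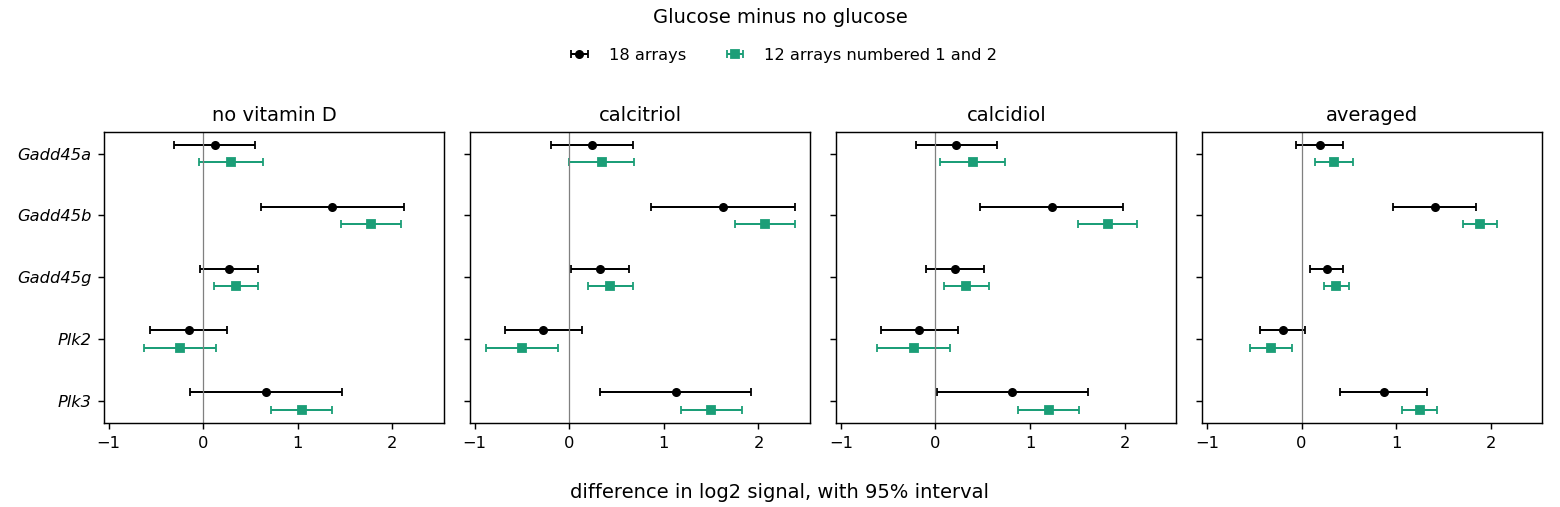
Glucose minus no glucose in log2 signal (horizontal axis) for each gene, by pretreatment and averaged, with 95% intervals from limma. Black circles are 18 arrays and green squares the 12 arrays numbered 1 and 2. The Gadd45b interval lies above 0 in every panel, and the green points lie farther from 0 than the black in all 4 panels for every gene.

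The 2 vitamin D forms were compared at the matched dose of 10 nM and the same 72 h, within each glucose state. Calcitriol and calcidiol differ in 1 hydroxyl group. With 1 pair of compounds, 2 glucose states and 5 genes there were 10 differences, and none passed after adjustment over all genes. Of all genes 0% were called in either glucose state, and limma gave an unadjusted p under 0.05 to 0.974% without glucose and 3.14% with it. Without glucose, calcitriol minus calcidiol ran from -0.17 in Plk2 (interval -0.57 to 0.24) to 0.23 in Gadd45a (-0.20 to 0.66), and Gadd45b was at 0.09 (-0.67 to 0.84).

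With glucose the difference was 0.48 in Gadd45b (interval -0.28 to 1.24), 0.38 in Plk3 (-0.42 to 1.18), 0.25 in Gadd45a (-0.18 to 0.68), 0.23 in Gadd45g (-0.07 to 0.54) and -0.27 in Plk2 (-0.68 to 0.14), each with a limma adjusted p of 0.999. Gadd45g was the gene without overlap between the forms, at 8.30 to 8.58 after calcitriol against 8.08 to 8.28 after calcidiol, as were 2.52% of all genes in that direction. The intervals include 0 and also differences above 1 log2 unit for Gadd45b and Plk3, so equal action of the forms was not shown.

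Among the arrays numbered 1 and 2 the same differences with glucose were smaller, with 0.0203% of all genes called, at 0.16 in Gadd45b (interval -0.16 to 0.47), 0.03 in Plk3 (-0.29 to 0.36) and 0.16 in Gadd45g (-0.07 to 0.40). Without glucose Plk3 was lower after calcitriol than after calcidiol by 0.27 in the mean (-0.60 to 0.05, limma adjusted p = 0.999). Of all genes 0.0102% were called there. The Plk3 arrays, 7.63 and 7.85 against 7.91 and 8.12, did not overlap, as 10.1% of all genes did not in that direction. With the arrays numbered 3 included the order was reversed, at group means of 7.93 after calcitriol and 7.86 after calcidiol.

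Against no vitamin D, calcitriol gave the highest differences in the presence of glucose, 0.53 in Gadd45b (interval -0.23 to 1.29) and 0.44 in Plk3 (-0.36 to 1.25), with a limma adjusted p of 1.00 for both. Gadd45g was 0.21 higher (-0.10 to 0.51) and did not overlap, as 1.65% of all genes did not in that direction. Restricted to arrays 1 and 2, the values were 0.29 in Gadd45b (-0.03 to 0.60), 0.27 in Plk3 (-0.06 to 0.59) and 0.08 in Gadd45g (-0.15 to 0.32). Without glucose calcitriol differences ran from -0.02 in Plk3 to 0.27 in Gadd45b (-0.49 to 1.03), and the latter became -0.01 on the 12 arrays.

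Calcidiol against no vitamin D gave differences from -0.23 in Gadd45a (interval -0.66 to 0.20) to 0.19 in Gadd45b (-0.57 to 0.94) without glucose. With glucose they ran from -0.13 in Gadd45a (-0.56 to 0.30) to 0.15 in Plk2 (-0.26 to 0.56). On the 12 arrays the calcidiol differences ran from -0.17 in Gadd45a (-0.51 to 0.17) to 0.08 in Gadd45b (-0.23 to 0.39) without glucose, and from -0.08 in Gadd45g to 0.23 in Plk3 (-0.09 to 0.56) with it. In these 4 comparisons of a form against none, 0% of all genes passed on 18 arrays and between 0% and 0.0203% on the 12, and no gene of the 5 did. The share of all genes with an unadjusted p under 0.05 in limma was 0.782% and 0.386% for calcitriol without and with glucose, and 2.42% and 2.63% for calcidiol.

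**Figure D4:**
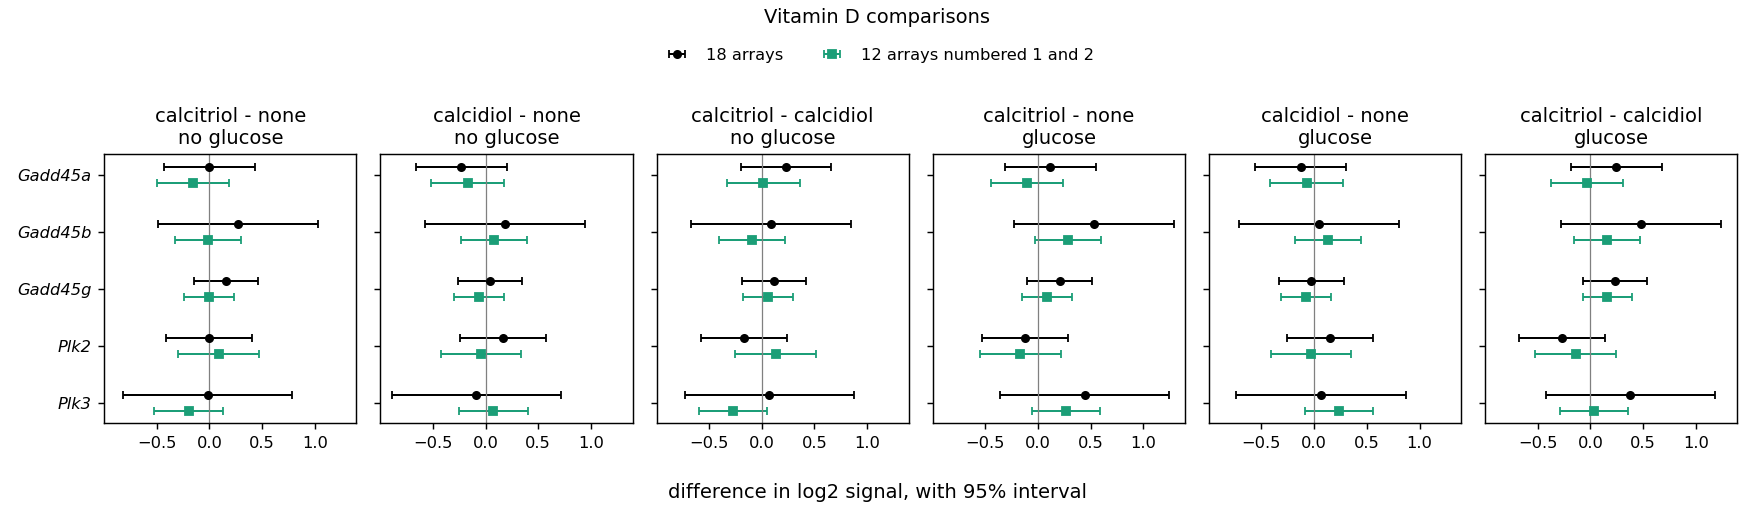
Differences in log2 signal between vitamin D states (horizontal axis) for each gene, without and with glucose, with 95% intervals from limma. Black circles are 18 arrays and green squares the 12 arrays numbered 1 and 2. Every interval includes 0, and the widest belong to Gadd45b and Plk3 on 18 arrays.

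Whether a vitamin D form altered the glucose response was tested as an interaction, the glucose difference after the form minus that without vitamin D. For calcitriol it was 0.46 in Plk3 (interval -0.68 to 1.59) and 0.26 in Gadd45b (-0.81 to 1.33). For calcidiol it was 0.15 in Plk3 (-0.99 to 1.29) and -0.14 in Gadd45b (-1.21 to 0.93). No gene of the 5 and 0% of all genes passed, and limma gave an unadjusted p under 0.05 to 0.67% of all genes for calcitriol and 0.325% for calcidiol. Once the arrays numbered 3 were left out, the calcitriol interaction of Plk3 was 0.46 again with a narrower interval, 0.00 to 0.92 (unadjusted p = 0.0481, limma adjusted p = 1.00), and that of Gadd45b was 0.30 (-0.15 to 0.74). On those 12 arrays limma gave an unadjusted p under 0.05 to 1.46% of all genes for the calcitriol interaction, and 0% passed. The calcidiol interactions on those 12 arrays were 0.16 in Plk3 (-0.30 to 0.62) and 0.05 in Gadd45b (-0.40 to 0.49).

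Among the partners of GADD45 proteins and the stress-activated MAP kinases, 27 genes in all, 24 were tested and 0 passed in the averaged glucose effect on 18 arrays, where 3.37% of all genes did. Their median difference was -0.04 against -0.03 over all genes. Mapkapk2, a kinase downstream of p38, was at 0.16 (limma adjusted p = 0.102), Tet1, a 5-methylcytosine dioxygenase, at -0.19 (adjusted p = 0.111) and Ccnb1, cyclin B1, at -0.12 (adjusted p = 0.251). Map3k4, the GADD45-bound kinase, was at -0.03. In the 12-array fit Mapkapk2 rose by 0.23 (adjusted p = 0.0291), 1 of the 24, where 3.76% of all genes were called higher. With the array number as a replicate block on 18 arrays it was again the 1 gene of the 24 called higher (adjusted p = 0.0304), beside 2.94% of all genes.

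Of 16 regulators known to act on Gadd45 or Plk genes, 15 were tested and 3 fell, where 1.97% of all genes were called lower. The median difference of the 15 was -0.06 against -0.03 over all genes. This list, like the others, was made with earlier results of these data known, so its counts are descriptions and not a test. Myc, a growth-promoting transcription factor known to repress Gadd45a, fell by 0.53 (SE 0.0879, limma adjusted p = 0.0129), from group means of 7.65, 7.38 and 7.41 in control, calcitriol and calcidiol to 6.97, 7.02 and 6.85 with glucose. Srf, serum response factor, fell by 0.46 (SE 0.0924, adjusted p = 0.0214), and Foxo1, a factor restrained by insulin signalling, by 0.27 (SE 0.0541, adjusted p = 0.0214). Egr1, an immediate early factor, was at 0.35 (adjusted p = 0.0869). Without the arrays numbered 3 Myc, Srf and Foxo1 fell by 0.72, 0.63 and 0.33, and Creb1, the cAMP response element binding factor, by 0.25 (adjusted p = 0.0320), 4 of 15, where 6.18% of all genes were called lower. With the replicate block on 18 arrays Egr1 was called higher (adjusted p = 0.0450) and the same 3 lower, beside 2.94% and 6.61% of all genes. With the block on the 12 arrays 2 of the 15 were called higher, Egr1 and the stress response factor gene Ddit3, and 5 lower, beside 5.12% and 10.8% of all genes.

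Of 20 genes of the polo-like kinase family and its partners, 14 were tested and 0 passed on 18 arrays, where 3.37% of all genes did, with a median difference of -0.07 against -0.03 over all genes. Plk1 and Plk4, the mitotic and the centriole kinase, were both at -0.10 (limma adjusted p = 0.266 and 0.369). Plk5, a family member with little kinase activity, was at 0.27 (adjusted p = 0.0701), Sipa1l1 at -0.12 (adjusted p = 0.0651) and Cdc25a, a CDK-activating phosphatase, at -0.13 (adjusted p = 0.138). With arrays 1 and 2 alone Plk5 rose by 0.38 (adjusted p = 3.48e-04), 1 of the 14, where 3.76% of all genes were called higher. With the replicate block on 18 arrays Plk5 was called higher and Sipa1l1 lower, beside 2.94% and 6.61% of all genes. With the block on the 12 arrays Plk5 was called higher and Cdc25a lower, beside 5.12% and 10.8%.

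Across the 18 arrays the log2 signals of Gadd45b and Plk3 had a Pearson correlation of 0.90, the highest among the 5 genes. It was 0.96 within the 9 arrays with glucose, where the arrays numbered 3 of 2 groups were low in both genes, and 0.31 within the 9 without. Restricted to arrays 1 and 2, it was 0.98. Gadd45b and Gadd45g had 0.93 within the 9 arrays without glucose, where calcitriol array 3 was highest in both, and 0.40 within the 9 with glucose. Plk2 ran the other way, at -0.59 with Plk3 over the 18. All genes on an array share its RNA, labelling and normalisation, and the arrays share the treatments, so these values are descriptions.

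Txnip, whose signal set the arrays numbered 3 apart, had a correlation over the 18 arrays of 0.92 with Gadd45b, 0.90 with Plk3, 0.80 with Gadd45a, 0.72 with Gadd45g and -0.55 with Plk2. Over the 12 arrays it was 0.99, 0.96, 0.78, 0.90 and -0.68 in the same order. On calcitriol array 3, labelled without glucose, where Txnip was at 12.11, Gadd45b was 7.97 and Plk3 8.31, above every other array without glucose. On glucose array 3 and calcidiol with glucose array 3 both genes and Txnip were the lowest of the arrays with glucose.

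**Figure D5:**
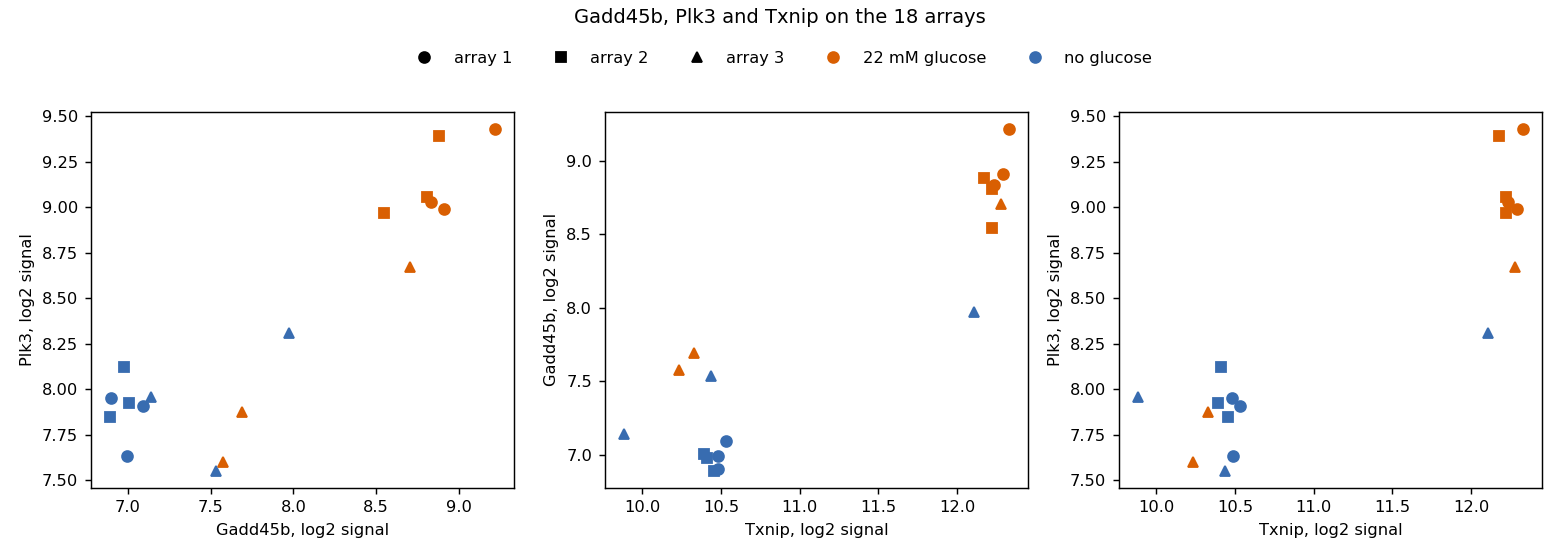
Log2 signals of Gadd45b, Plk3 and Txnip against each other on the 18 arrays, with shapes for arrays 1, 2 and 3 and orange for 22 mM glucose. The orange triangles of glucose and calcidiol with glucose lie with the blue points in Txnip, at 10.33 and 10.23, and the blue triangle of calcitriol lies at 12.11 beside the orange points.

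The 5 tested genes closest to Gadd45b over the 18 arrays were Bhlhe40, Spata2L, Junb, Atf3 and Noa1, each with a Pearson correlation of 0.97. Bhlhe40 is a circadian repressor, Junb an AP-1 subunit and Atf3 a stress-induced factor of the ATF/CREB family. For Plk3 they were Pdgfb, a growth factor chain, Prok2, a secreted prokineticin, and Bcl2l11, the pro-apoptotic BIM gene, at 0.98, then Gmip and Rhpn1 at 0.97. Over the 12 arrays Spata2L stayed among the 5 closest to Gadd45b and Pdgfb among those of Plk3, where Atf3 at 0.99 and Junb at 0.98 joined.

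For Gadd45a the closest were Cpt2, a mitochondrial fatty acid import enzyme, and Lurap1l at 0.91, then Ovol2 and Klf9, both zinc finger factors, at 0.90 and Sema4b at 0.89, of which Ovol2 and Lurap1l were also among the 5 over the 12 arrays. For Gadd45g they were Mcur1, a regulator of mitochondrial calcium uptake, at 0.90, Arl6ip4 at 0.86 and Mfsd5, Neurod2 and Mafk at 0.85. Those of Plk2 were Plekhg6 at 0.90, Scai at 0.87, Zfp644 at 0.84 and Suox and Nr3c1, the glucocorticoid receptor gene, at 0.83. For Gadd45g and for Plk2, 0 of these 5 were among the 5 closest over the 12 arrays.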

How the data were processed

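Total RNA of 18 INS1E samples, 150 ng each, was hybridised to 18 arrays, per the labels' protocols. The authors deposited normalised log2 signals. RMA and Partek are named in the submitters' processing notes, with neither role nor settings. Values were used as deposited, from a table of 17017 probe sets with 13136 distinct gene symbols, and the 5 symbols studied are current in RefSeq. The probe set with the highest mean stood for its gene, and 9852 genes above the lowest 25% by mean signal were tested.

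Samples were grouped by their labels. A single limma model of 6 group means (limma 3.58.1, R 4.3.3, lmFit and eBayes, 12 residual degrees of freedom) gave 12 comparisons, with Benjamini-Hochberg adjustment over all tested genes and a threshold of 0.05. The model of the 12 arrays numbered 1 and 2 had 6 residual degrees of freedom. Intervals are 95% and unadjusted. The number of arrays limits the precision.

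Same-numbered arrays deviated together from their group means in 8 of 9 comparisons (every correlation above 0.1), and the lowest correlation, 0.0533, was in the calcidiol effect without glucose. No label states this pairing, which rests on the signals, and blocked values are given where they changed a call.

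The genes, the gene lists, the 12-array fits and the tests were chosen with earlier results of these data known. Named genes were the 5 genes, up to 3 genes with the smallest p of each list and every list gene that passed in the averaged glucose effect, and the 5 genes with the highest Pearson correlation with each of the 5, passing over predicted genes. One regulator and one further gene list are not reported here. Txnip, Gcg, Ins1 and Ins2 served as checks. Map3k4, Plk1, Plk4, Egr1, Creb1 and Ddit3 were named outside that rule, after their values were seen. Settings varied one at a time were the filter (none, or the lowest 50% removed), the scaling (quantile, median centring), the source table, the probe set rule, the variance model, array weights, the groups fitted, the replicate block and the arrays left out. The scripts were tested on simulated data. Tables were handled in Python 3.11.15 with pandas 2.3.3 and numpy 2.4.6, and plotted with matplotlib 3.10.9. Promoters are those of RefSeq for GRCr8.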

Additional observations from a re-analysis of the deposited data

How the results depend on the processing

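In the averaged glucose effect the calls changed under 5 settings. With an intensity trend and robust estimation Plk3 kept 0.87 but had an adjusted p of 0.0616, leaving 1 of 5 called. The share of all genes called in that fit is not given here. Without moderation of the variances, in ordinary t-tests, Gadd45b at 1.41 and Plk3 at 0.87 had adjusted p of 0.0518 and 0.091. That left 0 called, where these t-tests called 2 genes of 9852. Array weights called 4, adding Gadd45a at 0.33 and Gadd45g at 0.38, with 411 higher and 760 lower calls among 9852 genes. The replicate block called 3, adding Gadd45g at 0.27, and raised the calls over all genes from 332 to 941. The 12 arrays numbered 1 and 2 with the replicate block called 5, with Gadd45a at 0.34, Gadd45g at 0.37 and Plk2 at -0.33, beside 15.9% of all genes. The cause of these changes was not tested.

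When arrays were left out, singly or all of one number, the averaged difference ran from 0.0925 to 0.34 in Gadd45a, 1.11 to 1.89 in Gadd45b, 0.16 to 0.37 in Gadd45g, -0.33 to -0.07 in Plk2 and 0.64 to 1.25 in Plk3, with 0 to 4 genes of 5 called. Within single pretreatments array weights called 2 without vitamin D and 3 after calcitriol, beside 10.7% and 3.79% of all genes. The 12 arrays with the block called 2, 4 and 2 without vitamin D, after calcitriol and after calcidiol, beside 1.78%, 4.54% and 2.45%. Leaving out arrays gave 0 to 2. The 2 were called without the arrays numbered 3, beside 1.06%, 1.89% and 1.35% of all genes in the same order. Without calcidiol with glucose array 3, Gadd45b passed after calcidiol, at 1.66 (adjusted p = 0.0495).

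The split of calls over all genes was 138 higher and 194 lower, and median centring turned it to 175 and 137 and quantile normalisation to 168 and 137. The direction of the 5 genes in the averaged effect was the same under every setting tried. In the 8 comparisons of vitamin D and its interactions no gene of the 5 passed under any setting (lowest adjusted p 0.677), and differences changed sign in 23 of 512 values under other settings and in 75 of 840 with arrays left out. The stricter filter left out Plk2.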
